A study of Mus musculus with 6 samples.

Results

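The genes described here are 38 genes of the integrated stress response and the unfolded protein response, taken by symbol from a deposited table of 34745 genes. All 38 symbols were found, each in 1 row. They were split by role into an amino acid response arm driven by the transcription factor ATF4 (20 genes) and an endoplasmic reticulum arm of sensors, chaperones and folding enzymes driven largely by ATF6 and XBP1 (18 genes). The RNA came from macrophages of the peritoneal cavity, the phagocytes that patrol the abdomen, of C57BL/6 mice. In one group, with 3 libraries, the cells were given vehicle for 24 h, and in the other, also with 3 libraries, they were given R-2-HG (R-2-hydroxyglutarate, the metabolite that mutant isocitrate dehydrogenases produce) at 0.1 mM for 24 h. Values per library are given in the order of the replicate numbers 1, 2 and 3 of the titles, and a pair means the vehicle and the R-2-HG library of the same number. No genetic change is named in the labels. Age, sex, the vehicle used and whether libraries came from separate animals are not stated in the labels, so every p-value here rests on a spread between libraries that may be technical.

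The integrated stress response begins when kinases that sense amino acid shortage, haem shortage, double-stranded RNA or misfolded proteins phosphorylate the translation factor eIF2. Most protein synthesis then slows while the mRNA of ATF4 is translated more, and ATF4 turns on genes for amino acid synthesis, amino acid uptake and, if stress persists, cell death. The unfolded protein response adds sensors in the membrane of the endoplasmic reticulum: PERK (gene Eif2ak3) feeds into eIF2, IRE1 (gene Ern1) splices the mRNA of XBP1, and ATF6 is cut to release a transcription factor. Because ATF4 is controlled largely by translation and XBP1 by splicing, the summed mRNA level of either gene is only a partial readout of its activity, and splice forms cannot be seen in these values.

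Values are FPKM, the fragments of a gene divided by transcript length and scaled to the mapped fragments of the library. Levels of different genes can be set side by side only roughly. Among ribosomal protein genes, whose products belong to the same particle, Rps6 stood at 0.565 to 1.56 FPKM and Rpl4 at 403 to 528 FPKM. The cause of this spread was not tested. The steps between low values put the depth at 13480000 to 16450000 fragments per library, at which 1 fragment of a 2 kb transcript is worth 0.0304 to 0.0371 FPKM. Macrophage markers were present in all 6 libraries, with all 6 markers above the filter and Lyz2 (lysozyme) between 16924 and 23901 FPKM. Of these markers, Itgam stood at 44.4 FPKM in R-2-HG library 1 and between 88.4 and 113 FPKM in all other libraries. None of the other macrophage markers was lowest in that library. Summed B cell markers stood at 1.36 to 2.42 FPKM under vehicle and 0.618 to 1.60 FPKM under R-2-HG, and summed T and NK cell markers at 0.488 to 3.47 and 0.165 to 1.26 FPKM. Plasma cell markers, genes of a cell type with a large endoplasmic reticulum, summed to 52.6 to 68.4 FPKM under vehicle and 49.8 to 68.6 FPKM under R-2-HG, most of it from Sdc1 at 44.2 to 65.0 FPKM, with Prdm1 at 2.29 to 6.56 FPKM over the 6 libraries. Of the same list, Tnfrsf17 and Derl3 were each listed at 0 in 4 of 6 libraries and Jchain stood at 1.15 to 2.62 FPKM under vehicle and 0.980 to 1.14 FPKM under R-2-HG. Neutrophil markers summed to 28.7 to 54.7 FPKM under vehicle and 29.8 to 46.9 FPKM under R-2-HG. Most of it came from Mmp8 at 18.3 to 37.9 FPKM and S100a8 at 8.69 to 16.2 FPKM. Of the same list, Ly6g was above 0 only in R-2-HG library 1 (0.0958 FPKM). S100a9 reached at most 1.22 FPKM, Retnlg 1.32 FPKM and Ngp 0.400 FPKM. Mast cell markers summed to at most 1.54 FPKM under vehicle and 2.09 FPKM under R-2-HG, and mesothelial markers to at most 1.96 and 3.98 FPKM. In these bulk RNA samples, fewer cells of a type and less RNA per cell cannot be told apart.

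Promoter sequence differed between the arms in these counts. The arms were drawn by the factors that drive them, so the counts describe the lists and are no independent support for the split. ATF4 binds composite elements of the form TGATGNAA, and ATF6 binds the endoplasmic reticulum stress element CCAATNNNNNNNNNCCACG together with the factor NF-Y. Windows from 250 bases before to 50 bases after the start site (RefSeq, GRCm38.p6) were matched by symbol for 34 of the 38 members, 19 of the ATF4 arm and 15 of the endoplasmic reticulum arm, and both strands were searched. The ATF4 element was found in 6 of 19 ATF4 arm genes and 1 of 15 endoplasmic reticulum arm genes, against 3.97% of all 32851 windows. The stress element was found in 0 of 19 and 6 of 15, against 0.119% of all windows (39 windows). The element TGACGTGG, bound by XBP1 and ATF6, was in no member's window and in 0.676% of all windows. The members with the stress element were Hspa5, Hsp90b1, Calr, Canx, Pdia6 and Creld2, all of them chaperones or folding factors of the endoplasmic reticulum. A match is a description of letters and not of binding.

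The ATF4 elements are shown because they mark which members carry the factor's letters near the start site, and all but Herpud1, of the endoplasmic reticulum arm, belong to the ATF4 arm. They are written in the direction of the motif, with the fixed letters in capitals and the free position in lower case. They lie on the same strand as the gene in Asns and Pycr1 and on the opposite strand in the others. That of Trib3 lies at positions 15 to 22 after the RefSeq start site of its window. The gene locations printed further below come from GENCODE and can start elsewhere.
Chac1: TGATGcAA
Trib3: TGATGtAA
Asns: TGATGaAA
Nupr1: TGATGcAA
Herpud1: TGATGcAA
Pycr1: TGATGcAA
Vldlr: TGATGcAA

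The stress elements are shown to give their spacers, which differ between the 6 chaperone and folding genes, with a pair of copies in Hsp90b1. The fixed letters are the same in all because they were searched for. Capitals mark the fixed letters, and all are written in the direction of the motif.
Hspa5: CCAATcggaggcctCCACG
Calr: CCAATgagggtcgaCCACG
Hsp90b1 (upstream copy): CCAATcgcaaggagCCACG
Hsp90b1 (downstream copy): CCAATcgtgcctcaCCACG
Canx: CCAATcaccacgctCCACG
Pdia6: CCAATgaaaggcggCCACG
Creld2: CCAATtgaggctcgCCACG

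The windows of 3 central members show these elements in place, 5′ to 3′ on the strand of the gene, with the fixed letters in capitals on whichever strand they were found. Asns, at chr6:7693160-7693459 on the minus strand, encodes asparagine synthetase. Hspa5, at chr2:34771840-34772139 on the plus strand, encodes the chaperone BiP. Hsp90b1, at chr10:86705395-86705694 on the minus strand, encodes the chaperone GRP94.
Asns: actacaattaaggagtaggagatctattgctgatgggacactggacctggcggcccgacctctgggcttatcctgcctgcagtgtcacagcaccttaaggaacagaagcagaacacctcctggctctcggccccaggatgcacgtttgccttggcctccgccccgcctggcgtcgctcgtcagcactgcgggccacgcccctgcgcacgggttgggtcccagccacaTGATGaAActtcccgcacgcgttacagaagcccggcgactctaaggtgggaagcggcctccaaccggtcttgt
Hspa5: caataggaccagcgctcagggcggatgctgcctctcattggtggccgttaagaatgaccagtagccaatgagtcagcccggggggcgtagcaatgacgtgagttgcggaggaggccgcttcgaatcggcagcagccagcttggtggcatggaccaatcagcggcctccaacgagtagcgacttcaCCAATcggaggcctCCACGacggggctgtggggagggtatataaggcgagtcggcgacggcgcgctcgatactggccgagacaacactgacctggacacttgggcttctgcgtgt
Hsp90b1: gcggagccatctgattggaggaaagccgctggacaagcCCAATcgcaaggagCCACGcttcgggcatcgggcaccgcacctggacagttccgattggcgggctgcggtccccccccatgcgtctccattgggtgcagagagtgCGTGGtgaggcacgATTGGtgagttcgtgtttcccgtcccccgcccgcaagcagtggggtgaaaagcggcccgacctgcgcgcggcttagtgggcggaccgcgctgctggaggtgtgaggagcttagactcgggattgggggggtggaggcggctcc

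The arms stood at different FPKM levels in these macrophages, within the limit on comparing genes given above. In the endoplasmic reticulum arm the median gene level was 24.7 FPKM over all 6 libraries, 3 genes averaged at least 100 FPKM, 10 lay between 10 and 100 FPKM, 5 between 1 and 10 FPKM and none below 1 FPKM. In the ATF4 arm the median was 2.43 FPKM, and only Atf4 itself averaged above 100 FPKM, with 3 genes between 10 and 100 FPKM, 10 between 1 and 10 FPKM and 6 below 1 FPKM. Calr (calreticulin, a calcium-binding lectin chaperone) was the highest of all members at 182 FPKM, followed by Atf4 at 137 FPKM and by Pdia3, a disulfide isomerase that works with calreticulin, at 121 FPKM. The lowest was Stc2, a secreted glycoprotein, at 0.0239 FPKM, which is below the value of 1 fragment of a 2 kb transcript. Among the 9701 genes averaging 1 FPKM or more, Calr stood at the 98.4th percentile and Asns at the 20.8th percentile of level.

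**Figure D1:**
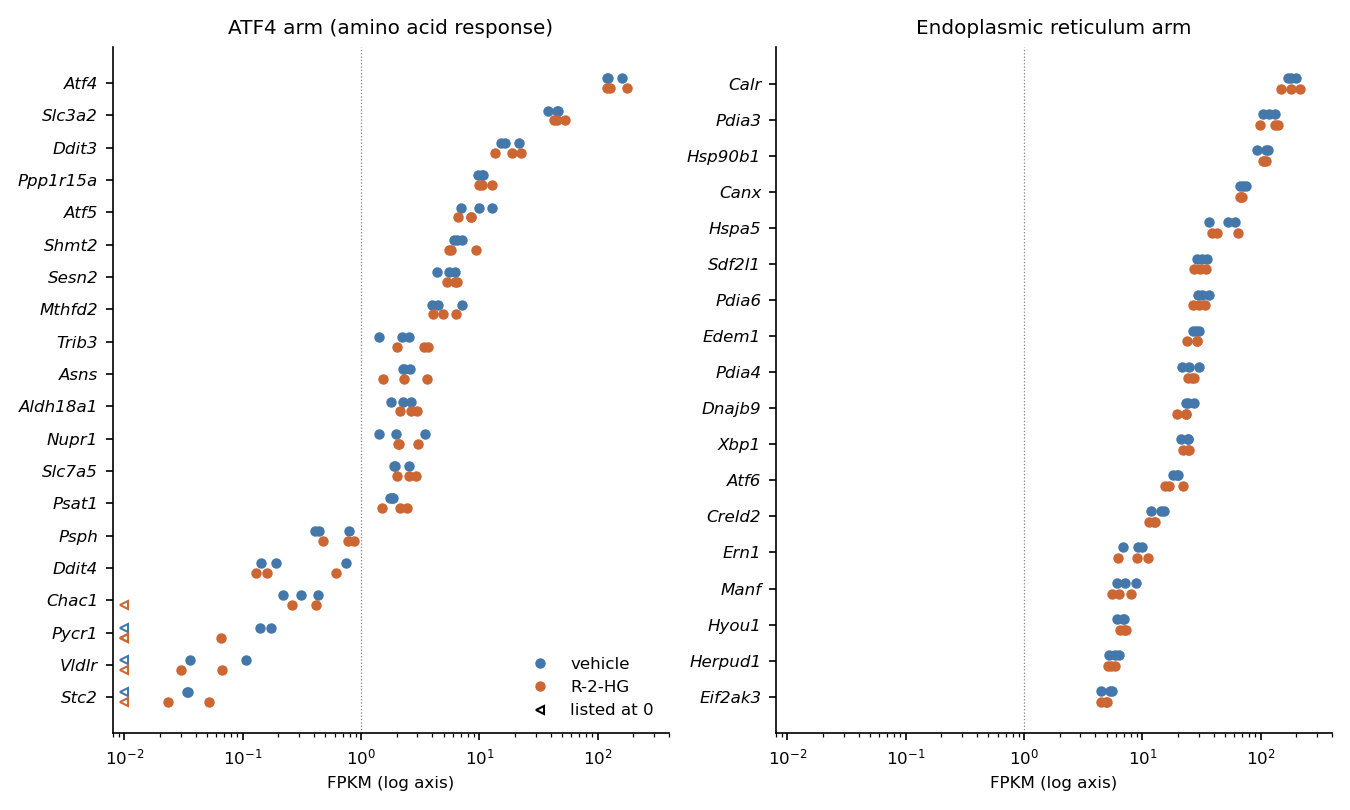
FPKM of the 38 members on a log axis, 1 point per library, with vehicle in blue and R-2-HG in orange (3 libraries each), sorted by mean level within each arm. Open triangles at the left edge stand for libraries listed at 0, and the dotted line marks the filter of 1 FPKM. The groups overlap for all 38 members, and levels span from 0.0239 FPKM (Stc2) to 182 FPKM (Calr).

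The comparison of R-2-HG with vehicle asks whether the metabolite changed these stress genes within 24 h. No member passed the test. With limma on log2(FPKM + 1), adjusted over all 9701 genes tested, 0 of the 32 members above the filter passed the threshold of 0.05 (lowest adjusted p = 0.99998), beside 0 of 9701 genes (0% called). At an unadjusted p under 0.05 there were 0 of 32 members and 1.44% of all genes. The 6 other members, Psph, Ddit4, Chac1, Pycr1, Vldlr and Stc2, lay below the filter and were not tested. In none of the 38 members did the 3 libraries of one group all lie above those of the other, while 4.69% of all genes tested had such groups. An exact permutation test of 3 against 3 libraries cannot give a two-sided p below 0.1, and the limma model is what single genes are read from.

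Tested members of the ATF4 arm leaned higher with R-2-HG and those of the endoplasmic reticulum arm leaned lower, in both cases by small amounts, and no single member passed. The median log2 change (R-2-HG minus vehicle) was 0.087 over the 14 tested ATF4 arm members, of which 11 had a higher mean and 3 a lower one. It was -0.057 over the 18 endoplasmic reticulum arm members, 6 higher and 12 lower. Over all 9701 genes the median was -0.0044, with 4691 higher and 5010 lower. The mean of log2(FPKM + 1) over the 14 ATF4 arm members was 2.95, 2.91 and 3.06 in the vehicle libraries by number and 3.01, 2.98 and 3.17 in the R-2-HG libraries. That of the 18 endoplasmic reticulum arm members was 4.78, 4.71 and 4.64 in vehicle and 4.71, 4.63 and 4.65 in R-2-HG, in the same order. The ATF4 arm mean was higher under R-2-HG in all 3 pairs, and the endoplasmic reticulum arm mean was lower in pairs 1 and 2 and higher in pair 3. The groups overlapped in both arms, and the difference between the arms was not tested. Summed over all its members, the endoplasmic reticulum arm held 761 ± 39.0 FPKM under vehicle and 752 ± 62.1 FPKM under R-2-HG (SD, n = 3 each), and the ATF4 arm 246 ± 22.9 and 259 ± 41.0 FPKM. Unlike its mean of log2(FPKM + 1), the ATF4 arm sum was lower under R-2-HG in pair 1 (238 FPKM under vehicle, 231 FPKM under R-2-HG). It was higher in pairs 2 (228 and 241 FPKM) and 3 (272 and 306 FPKM).

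**Figure D2:**
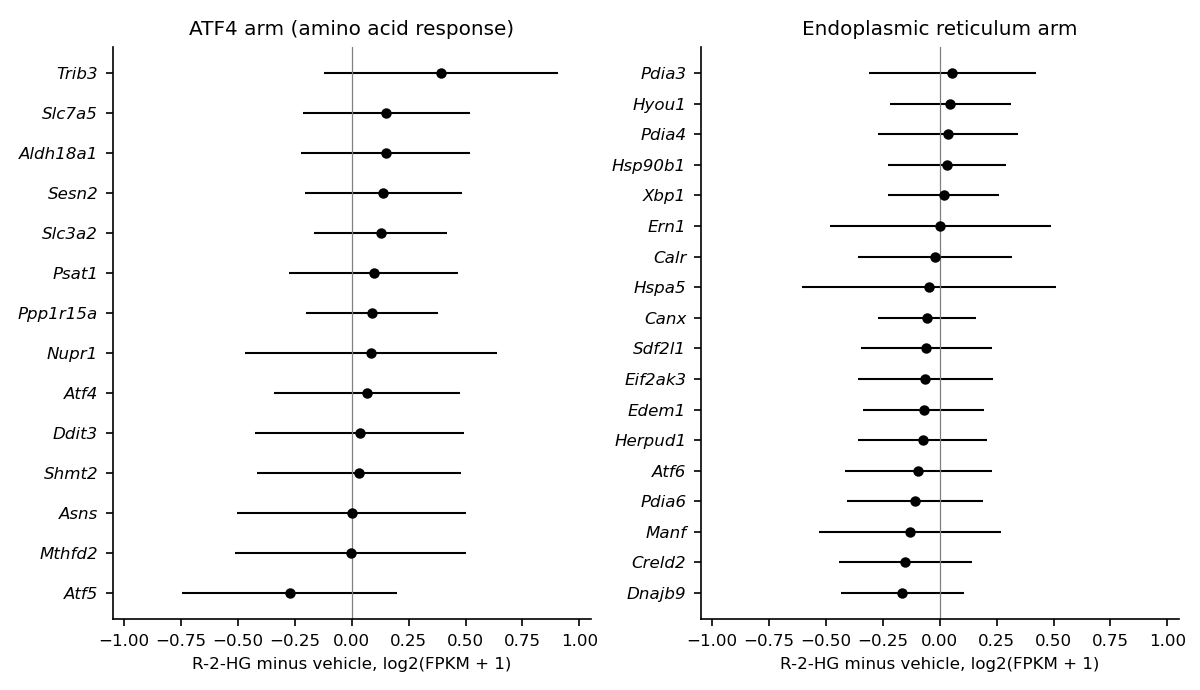
Change of the 32 tested members, R-2-HG minus vehicle on log2(FPKM + 1), with points for the limma estimate and bars for its 95% interval (3 libraries per group). The fit shown is the one without the replicate number. Every interval includes 0 and lies within 1 unit of 0, and Trib3 (0.39) and Atf5 (-0.27) stand at the ends of the ATF4 arm.

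Atf4 and Ddit3, the transcription factors at the head of the amino acid response arm, did not pass. Atf4 (chr15:80255184-80257541, plus strand) stood at 123, 119 and 159 FPKM in the vehicle libraries numbered 1, 2 and 3 and at 119.5, 127 and 176 FPKM in those given R-2-HG, by number. Its highest values in both groups were in the libraries numbered 3, and the groups overlapped. The log2 change was 0.066 (SE 0.18, 95% interval -0.34 to 0.48). Ddit3 (chr10:127290774-127296288, plus strand) encodes CHOP, a factor that ATF4 induces and that promotes cell death under lasting stress. It stood at 15.1, 16.4 and 21.5 FPKM under vehicle and at 13.6, 18.8 and 22.4 FPKM under R-2-HG, again highest in the libraries numbered 3 (log2 change 0.035, SE 0.20, interval -0.42 to 0.49). Exons of Ddit3 overlap another gene model of that symbol on its own strand and Mars, a tRNA synthetase gene, on the other, so its level is uncertain.

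Trib3 had the largest positive estimate of the members and Atf5 the largest negative one. Trib3 (chr2:152337422-152344032, minus strand), a pseudokinase that ATF4 and CHOP induce and that feeds back on ATF4, stood at 1.42, 2.22 and 2.55 FPKM under vehicle and at 2.01, 3.44 and 3.68 FPKM under R-2-HG. Each same-numbered pair had more of it under R-2-HG, although R-2-HG library 1 lay below vehicle libraries 2 and 3. The log2 change was 0.39 (SE 0.22, interval -0.12 to 0.91; limma adjusted p = 0.99998). With the replicate number as a block, Trib3 was the only member with an unadjusted p under 0.05, which 3.39% of all genes also had, and its limma adjusted p there was 0.991. Atf5 (chr7:44812256-44816658, minus strand), an ATF4-related factor of the mitochondrial stress response, stood at 12.7, 7.02 and 9.86 FPKM under vehicle and at 8.46, 6.58 and 8.43 FPKM under R-2-HG. It was lower in all 3 pairs, with overlapping groups (log2 change -0.27, SE 0.20, interval -0.75 to 0.20). Exons of Atf5 overlap Il4i1 and Nup62 on the opposite strand, and the labels give no strand handling.

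Genes of amino acid uptake were listed at unequal FPKM levels. Slc3a2 (chr19:8706882-8723369, minus strand), the heavy chain shared by several amino acid exchangers, stood at 45.8, 45.6 and 37.9 FPKM under vehicle and at 42.7, 45.7 and 53.3 FPKM under R-2-HG. Both the lowest and the highest value came from libraries numbered 3 (log2 change 0.13, SE 0.13, interval -0.16 to 0.42). Slc7a5 (chr8:121881150-121907694, minus strand), the light chain LAT1 that pairs with it to import large neutral amino acids, was much lower, at 1.92, 1.92 and 2.56 FPKM under vehicle and 2.90, 2.54 and 2.01 FPKM under R-2-HG. It was higher with R-2-HG in pairs 1 and 2 and lower in pair 3 (log2 change 0.15, SE 0.16, interval -0.22 to 0.52).

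Enzymes of amino acid synthesis were low, and none of those tested passed. The one-carbon enzymes Shmt2 and Mthfd2 stood nearer the middle of the tested genes, at the 52.3rd and 43.5th percentile of level, and did not pass. Asns (chr6:7675169-7693254, minus strand) stood at 2.60, 2.25 and 2.33 FPKM under vehicle and at 2.32, 1.54 and 3.62 FPKM under R-2-HG. The R-2-HG libraries held both its lowest and its highest value, and the log2 change was -0.00041 (SE 0.22, interval -0.50 to 0.50). Psat1, an enzyme of serine synthesis, averaged 1.81 ± 0.0480 FPKM under vehicle and 2.03 ± 0.493 FPKM under R-2-HG (SD, n = 3). Psph, which completes serine synthesis, averaged 0.551 ± 0.215 and 0.710 ± 0.206 FPKM. The mitochondrial one-carbon enzymes Shmt2 and Mthfd2 averaged 6.53 ± 0.516 and 5.19 ± 1.70 FPKM under vehicle and 6.87 ± 2.21 and 5.09 ± 1.13 FPKM under R-2-HG. Shmt2 stood highest in R-2-HG library 1 (9.42 FPKM), while Mthfd2 stood highest in the libraries numbered 3 (7.14 FPKM under vehicle and 6.30 FPKM under R-2-HG). Of the proline synthesis enzymes, Aldh18a1 averaged 2.24 ± 0.424 and 2.59 ± 0.417 FPKM and was higher under R-2-HG in every pair. Pycr1, the last step of that route, was listed at 0 in vehicle library 2 and in R-2-HG libraries 2 and 3, and reached at most 0.175 FPKM.

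The remaining ATF4 targets regulate signalling, redox state and survival. Ppp1r15a (GADD34, which recruits the phosphatase that reverses eIF2 phosphorylation) averaged 10.3 ± 0.460 FPKM under vehicle and 11.1 ± 1.49 FPKM under R-2-HG. Sesn2, a leucine sensor that restrains mTORC1, averaged 5.38 ± 0.914 and 5.99 ± 0.606 FPKM, and Nupr1, a small stress-induced chromatin protein, 2.28 ± 1.04 and 2.40 ± 0.567 FPKM. Their differences were smaller than the SD of at least 1 group. Ddit4 (REDD1, an inhibitor of mTORC1) stood at 0.751, 0.191 and 0.143 FPKM under vehicle and at 0.617, 0.130 and 0.162 FPKM under R-2-HG, so that both libraries numbered 1 lay above the other 4. Chac1, which degrades glutathione, was listed at 0 in R-2-HG library 2 and lay between 0.221 and 0.434 FPKM in the other 5 libraries. Vldlr, a lipoprotein receptor, reached at most 0.106 FPKM and Stc2 at most 0.0521 FPKM, each with 0 in both libraries numbered 3. Psph, Pycr1, Ddit4, Chac1, Vldlr and Stc2 averaged below the filter and did not enter the main test.

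The sensors of the unfolded protein response were all expressed, and none passed the test. Eif2ak3 (PERK) averaged 5.10 ± 0.569 FPKM under vehicle and 4.82 ± 0.315 FPKM under R-2-HG, Ern1 (IRE1) 8.62 ± 1.57 and 8.75 ± 2.40 FPKM, and Atf6 19.2 ± 1.10 and 18.1 ± 3.33 FPKM (SD, n = 3). Xbp1 (chr11:5520659-5525893, plus strand), the target of IRE1, was among the steadiest members. It stood at 24.1, 21.4 and 24.3 FPKM under vehicle and at 24.6, 21.8 and 24.2 FPKM under R-2-HG (log2 change 0.018, SE 0.11, interval -0.23 to 0.26). In both groups the library numbered 2 was the lowest.

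Among the chaperones, Hspa5 had the largest SE, since its libraries differed within each group. Hspa5 (chr2:34771970-34777547, plus strand), the BiP chaperone that holds the sensors inactive in unstressed cells, stood at 52.7, 60.8 and 36.5 FPKM under vehicle and at 64.5, 38.6 and 42.5 FPKM under R-2-HG. It was higher with R-2-HG in pairs 1 and 3 and lower in pair 2 (log2 change -0.048, SE 0.24, interval -0.61 to 0.51). Its partner genes differed less from library to library. Hsp90b1 averaged 106 ± 12.1 FPKM under vehicle and 108 ± 3.62 FPKM under R-2-HG, and Canx, the membrane-bound lectin chaperone calnexin, 70.7 ± 3.97 and 67.9 ± 1.49 FPKM. Calr averaged 183 ± 14.3 and 181 ± 32.9 FPKM, and Hyou1, a nucleotide exchange factor for BiP, 6.66 ± 0.437 and 6.91 ± 0.405 FPKM. Canx was lower and Hyou1 higher under R-2-HG in every pair. A pseudogene of Calr is also listed in the table and can share its reads.

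Co-chaperones and folding enzymes gave the smallest p-values of the endoplasmic reticulum arm, and none passed. Dnajb9 (chr12:44205559-44210326, minus strand), a co-chaperone of BiP that represses IRE1, stood at 27.3, 23.4 and 24.2 FPKM under vehicle and at 23.5, 23.5 and 19.7 FPKM under R-2-HG (log2 change -0.16, SE 0.12, interval -0.44 to 0.11; limma adjusted p = 0.99998). It was lower with R-2-HG in pairs 1 and 3 and nearly level in pair 2. Creld2 (chr15:88819646-88826683, plus strand), a stress-induced folding factor, stood at 15.1, 14.3 and 11.7 FPKM under vehicle and at 11.3, 12.6 and 12.7 FPKM under R-2-HG (-0.15, SE 0.13, interval -0.44 to 0.14). Manf (chr9:106838312-106891979, minus strand), a secreted cofactor of BiP, stood at 8.77, 7.11 and 6.08 FPKM under vehicle and at 7.98, 5.49 and 6.34 FPKM under R-2-HG (-0.13, SE 0.17, interval -0.53 to 0.27). Both were lower in pairs 1 and 2 and higher in pair 3. An exon of Manf overlaps Rbm15b on the same strand, so reads may be shared. Exons of Hsp90b1, Dnajb9, Pdia3, Pdia4, Pdia6, Eif2ak3, Psph, Shmt2 and Ppp1r15a also overlap other gene models, and their values carry the same uncertainty.

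The disulfide isomerases, which form and rearrange disulfide bonds in new proteins, had differences in both directions, none of which passed. Pdia6 (chr12:17266545-17284770, plus strand) stood at 36.9, 29.4 and 31.9 FPKM under vehicle and at 33.9, 26.9 and 30.0 FPKM under R-2-HG. It was lower in all 3 pairs, by less than the spread between the numbers (log2 change -0.11, SE 0.13, interval -0.41 to 0.19). Pdia3 averaged 118 ± 14.3 and 124 ± 22.1 FPKM and Pdia4 25.5 ± 4.18 and 26.0 ± 1.55 FPKM. Sdf2l1, part of a BiP co-chaperone complex, averaged 32.1 ± 3.07 and 30.8 ± 3.67 FPKM. Of the degradation factors, Herpud1, which organises the ubiquitin ligase of the endoplasmic reticulum, averaged 5.82 ± 0.539 and 5.46 ± 0.328 FPKM and was lower in all 3 pairs. Edem1, a lectin that hands misfolded glycoproteins to that route, averaged 28.4 ± 1.45 and 27.1 ± 2.97 FPKM.

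Across same-numbered pairs, 3 of 32 tested members (Trib3, Aldh18a1 and Hyou1) had more mRNA under R-2-HG in every pair and 4 (Atf5, Canx, Herpud1 and Pdia6) had less in every pair. Over all genes tested 11.7% were higher and 11.8% lower in all 3 pairs. The members' shares are near these values.

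The precision of the data sets how large a change could have gone unseen. For all 32 tested members the 95% interval of the change in log2(FPKM + 1) stayed inside -1 to 1, as it did for 94.6% of all genes. Within 0.5 units lay 16 of 18 endoplasmic reticulum arm members (88.9%) but 7 of 14 ATF4 arm members (50%), beside 60.2% of all genes. The median SE was 0.13 in the endoplasmic reticulum arm and 0.19 in the ATF4 arm. These intervals and SEs come from the fit without the replicate number, so they include the spread between the numbers. Intervals were not counted in this way for the fit with the block. With the number as a block, the SE was 0.065 for Atf4 (0.18 without it) and 0.094 for Ddit3 (0.20). It was 0.117 for Trib3 (0.22) and 0.067 for Pdia6 (0.13) with the block. Of the members with a printed change, only Slc7a5 had a larger SE with the block (0.164 against 0.159). For the low ATF4 targets at 2 to 3 FPKM the scale understates changes in FPKM.

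The signs of several changes near 0 turned when 1 library was left out, while every adjusted p stayed at 0.991 or above. The log2 change of Atf4 became -0.10 without R-2-HG library 3 and -0.012 without vehicle library 2. That of Ddit3 became -0.12 without R-2-HG library 3, -0.063 without vehicle library 1 and -0.0076 without vehicle library 2. That of Asns became 0.21 without R-2-HG library 2, 0.043 without vehicle library 1 and 0.015 without R-2-HG library 1. Hspa5 turned to 0.11 without vehicle library 2, 0.095 without R-2-HG library 2, 0.029 without R-2-HG library 3 and 0.0045 without vehicle library 1, and Xbp1 to -0.040 without vehicle library 2, -0.015 without R-2-HG library 1 and -0.0014 without R-2-HG library 3. The other 8 members with a printed change had the same sign in each of these fits, over wide ranges. Those above 0 lay between 0.23 and 0.59 for Trib3, 0.067 and 0.25 for Slc7a5, and 0.039 and 0.20 for Slc3a2. Those below 0 lay between -0.47 and -0.089 for Atf5, -0.21 and -0.083 for Dnajb9, -0.25 and -0.082 for Creld2, -0.19 and -0.021 for Pdia6, and -0.26 and -0.0077 for Manf.

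Replicate number accounted for more of the members' variation than treatment. The titles give numbers 1 to 3 in both groups without saying what they mark. Of the sum of squares of log2(FPKM + 1) over the 6 libraries, number held a median of 65.8% and treatment a median of 10.4% over the 32 tested members, beside 60.9% and 7.13% over all genes. The share of number exceeded that of treatment in 28 of 32 members (87.5%) and in 84.5% of all genes, so the members lay close to the rest of the table here. Number takes 2 of the 5 degrees of freedom and treatment 1. In an additive fit with treatment, chosen after the values had been seen, limma's F test of number called 0 of 32 members at an adjusted p under 0.05, against 155 genes (1.60%), and 10 members (31.2%) against 21.0% of all genes had an unadjusted p under 0.05. Atf4 had the smallest p of the members (number share 94.4%, limma adjusted p = 0.0752), followed by Ddit3 (92.1%, adjusted p = 0.118) and Trib3 (62.9%, adjusted p = 0.144).

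Some members of each arm stood highest or lowest in the same number in both groups. Atf4, Ddit3 and Mthfd2 were highest in both libraries numbered 3, and Trib3 was lowest in both libraries numbered 1. Calr was also highest in the libraries numbered 3 (197 and 215 FPKM) and lowest in those numbered 2 (169 and 149 FPKM), and Pdia3 was lowest in those numbered 2 (105 and 98.4 FPKM). Ern1 was lowest in those numbered 1 (6.86 FPKM under vehicle and 6.27 FPKM under R-2-HG). Fibroblast markers moved with the number as well, all 6 of which were in the table and 5 above the filter. They summed to 84.7, 22.8 and 3.74 FPKM in the vehicle libraries numbered 1, 2 and 3 and to 71.1, 11.7 and 3.90 FPKM in those given R-2-HG, by number. Lum, another of these markers, was listed at 0 in R-2-HG libraries 2 and 3. The part of these cells in the members' values was not tested.

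**Figure D3:**
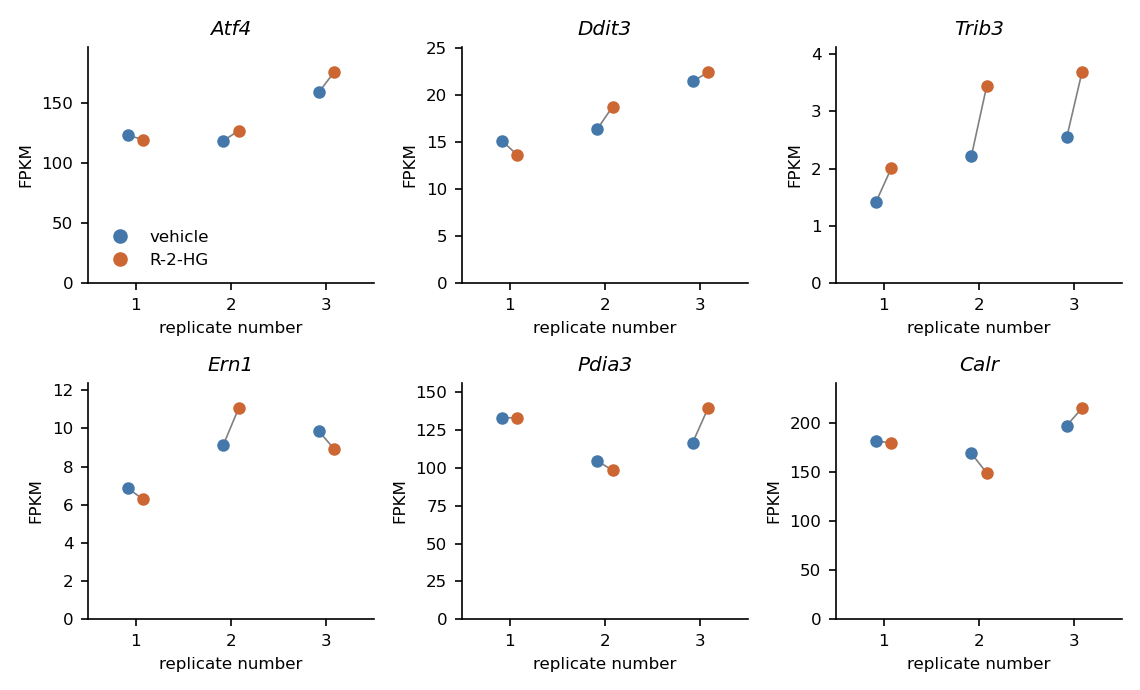
FPKM of the 6 members with the smallest p for replicate number, by number, with vehicle in blue, R-2-HG in orange and a grey line joining libraries of the same number (1 library per point). In Atf4 both libraries numbered 3 (159 and 176 FPKM) lie above the other 4, and in Trib3 the orange point lies above the blue one at each number.

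Other genes of the same pathways, taken from lists drawn with earlier results of these data known, gave no calls either. Cars and Dnajc3 are each on more than 1 of these lists. With limma adjusted over all genes, 0 members of the 6 lists passed (adjusted p = 0.99998 throughout). Only Hars had a limma unadjusted p under 0.05, which 1.44% of all genes also had. Of the eIF2 kinases, eIF2B subunits and related control genes, all 14 were tested, 6 higher and 8 lower (median log2 change -0.031). Those with the smallest p were Gcn1l1, an activator of the amino acid sensor kinase GCN2, at 3.45 ± 0.134 FPKM under vehicle and 2.99 ± 0.465 FPKM under R-2-HG, and Eif2ak2 (PKR, the kinase that senses double-stranded RNA) at 6.73 ± 1.44 and 7.77 ± 1.38 FPKM (SD, n = 3). Of 28 other ATF4 targets, 20 were tested, 13 higher and 7 lower (median 0.050). Here Jdp2, a transcription factor of the same leucine zipper class, averaged 3.43 ± 0.336 and 4.25 ± 0.50 FPKM, and Xpot, which exports tRNA from the nucleus, 11.6 ± 0.153 and 13.3 ± 1.23 FPKM. The 3 R-2-HG libraries of Xpot (12.0, 13.5 and 14.5 FPKM) lay above the 3 vehicle libraries (11.4, 11.7 and 11.7 FPKM). Groups without overlap were found for 2 of the 20 tested genes of this list, beside 4.69% of all genes tested. Of the other lists, the tRNA synthetases and the heat shock genes held 1 such gene each.

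The tRNA synthetases, many of which ATF4 induces, were all tested, 11 higher and 9 lower of 20 (median 0.0058). Hars, which charges tRNA with histidine, stood at 21.6, 23.1 and 25.1 FPKM under vehicle and at 19.9, 19.3 and 17.8 FPKM under R-2-HG (limma adjusted p = 0.99998). Its groups did not overlap, as those of 4.69% of all genes tested did not. Kars, the lysine enzyme, averaged 26.0 ± 2.09 and 23.6 ± 1.82 FPKM. Both had lower means with R-2-HG, while the median of the list lay near that of all genes.

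Further genes of folding, translocation and degradation in the endoplasmic reticulum lay in both directions, and none passed the test. Of 34 other folding and unfolded protein response genes 33 were tested, 17 higher and 16 lower (median 0.0030). Sil1, a nucleotide exchange factor for BiP, averaged 14.3 ± 1.28 FPKM under vehicle and 16.0 ± 0.454 FPKM under R-2-HG, and Rtcb, the ligase that joins the cut ends of Xbp1 mRNA, 41.8 ± 9.99 and 46.4 ± 5.91 FPKM. Of 20 genes of endoplasmic reticulum-associated degradation 19 were tested, 11 higher and 8 lower (median 0.0048). The ubiquitin-conjugating enzyme gene Ube2g2 averaged 14.97 ± 4.20 and 19.2 ± 0.584 FPKM, and Derl2, a channel component, 5.03 ± 0.248 and 5.85 ± 1.08 FPKM. Of 14 heat shock genes of the cytosol and mitochondria 12 were tested, 4 higher and 8 lower (median -0.020), with Hspa1a (HSP70, whose reads can be shared with its near-identical copy Hspa1b) at 1.14 ± 0.0868 and 0.862 ± 0.257 FPKM and Hspd1, the mitochondrial chaperonin, at 46.2 ± 4.45 and 41.6 ± 4.52 FPKM.

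**Figure D4:**
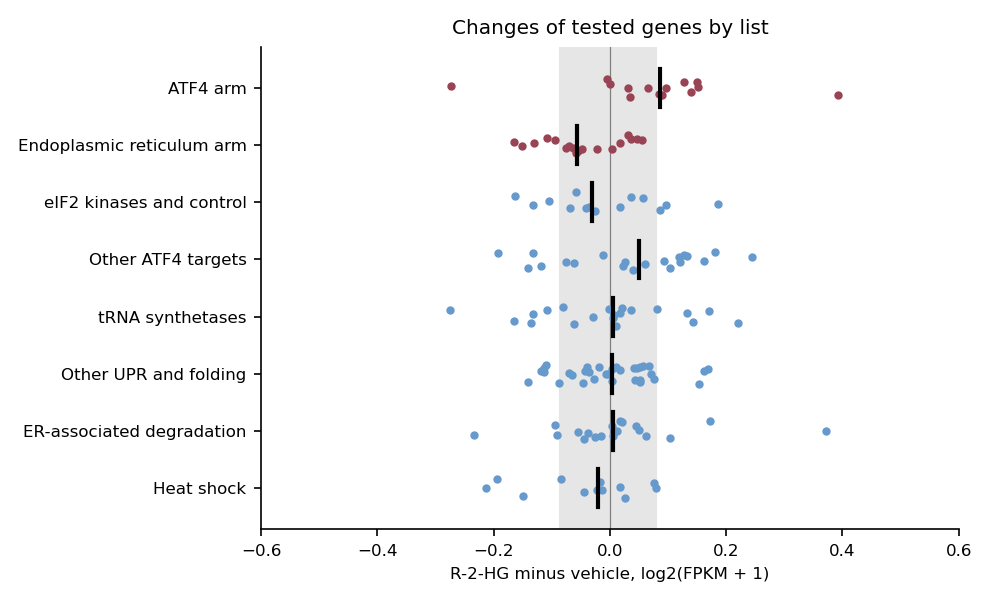
Change of each tested gene, R-2-HG minus vehicle on log2(FPKM + 1), by list, with the members in red, other pathway genes in blue (1 point per gene, shifted up or down at random for legibility) and the list median as a black bar. The grey band spans the quartiles of the 9701 single genes (-0.085 to 0.079), and the median is 0.087 for the ATF4 arm and -0.057 for the endoplasmic reticulum arm.

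The members with a promoter element are given by their counts alone, with no test. Of the 7 genes with the ATF4 element 4 were above the filter, of which 2 leaned higher and 2 lower under R-2-HG (median log2 change 0.042), and of the 6 genes with the stress element 1 was higher and 5 were lower (median -0.052). Asns and Hspa5, whose windows are printed above, had log2 changes of -0.00041 and -0.048.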

How the data were processed

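RNA-seq values of 6 libraries (3 vehicle, 3 R-2-HG) were used as the authors deposited them, as 1 table of FPKM with 1 column per library. The submitters' processing notes list Bowtie 0.12.2, Cuffdiff, mm8 and mm10 without saying which served what; annotation and strand handling are not given in the sources here. All columns were matched to libraries by name, and no library duplicated another. FPKM keeps no counts, so depth was estimated as the smallest number of fragments that made low values of single-transcript genes over 1000 bp whole (within 0.1 for 95.8% to 97.0% of low values); intervals cover the spread between libraries only.

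The 9701 genes averaging 1 FPKM or more entered a limma (3.58.1, R 4.3.3) fit of log2(FPKM + 1) (trend and robust estimation, two-sided, Benjamini-Hochberg over all genes, threshold 0.05). Fold changes on this scale understate changes of low genes. Locations and exon overlaps come from GENCODE M21 (GRCm38). Where several rows carried 1 symbol, the one with the highest mean stood for it. Tables were handled with Python 3.11.15 and pandas 2.3.3. The fit was tested on simulated data.

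The members and lists were chosen with earlier results of these data known. Log2 changes are given for Atf4, Ddit3, Asns, Hspa5, Xbp1 and the 4 members of each arm with the smallest p, and of each other list the 2 genes with the smallest p are named. Other genes are given by level. Libraries of the same number deviated together from their group means, with correlations of 0.54, 0.37 and 0.36 across genes for numbers 1, 2 and 3, above the criterion of 0.1, so the numbers were taken to pair the libraries; this comes from the data, not from the labels. Alternatives were another pseudocount, 2 other filters, 2 scalings, limma without trend and robust estimation, the replicate block and leaving out each library.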

Additional observations from a re-analysis of the deposited data

How the results depend on the processing

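No member was called under any alternative run, and the smallest adjusted p of a member over them was 0.991. The count of called genes was 0 under every alternative except 2 that left out 1 library: it lay between 0 and 1 over those fits, at 1 without R-2-HG library 1 (Ube2l3) and 1 without R-2-HG library 3 (C5ar1), neither of them a member and both named after their values were seen. In the paired fit, with a block for replicate number, 0 genes and 0 members were called, and the block changed no other call. The median log2 change kept its sign under all alternatives, between 0.051 and 0.13 for the ATF4 arm and between -0.073 and -0.018 for the endoplasmic reticulum arm. The count of members with a higher mean lay between 13 and 20 when 1 library was left out. Outside those fits no named gene changed sign. With 1 library left out, signs turned for 6 genes, of which the log2 changes lay between -0.10 and 0.20 for Atf4, -0.12 and 0.22 for Ddit3, -0.22 and 0.21 for Asns, -0.27 and 0.11 for Hspa5, -0.040 and 0.069 for Xbp1 and -0.0046 and 0.34 for Rtcb. Trib3 lay between 0.23 and 0.59 and Atf5 between -0.47 and -0.089 in those fits. The cause was not tested. The mean filter of 5 FPKM left 25 members and no value for Asns or Trib3. The 6 members below the filter entered only the fit without it, where none was called.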
